A study of Mus musculus with 10 samples.

Results

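MHC class II molecules are surface receptors of the mouse H2 region that show peptides from the endocytic pathway to helper T cells. An alpha and a beta chain pair in the endoplasmic reticulum with the invariant chain, the DM heterodimer later exchanges the remnant of that chain for peptide, and the DO heterodimer restrains DM. Transcription of the family depends on the coactivator CIITA, which docks on a set of factors bound to the X and Y boxes of class II promoters. Professional antigen-presenting cells express it constitutively. In human cells CTCF binds an insulator-like element between class II genes and takes part in loops to their promoters.

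The genes described here were H2-Aa and H2-Ab1, the alpha and beta chains of I-A, H2-Eb1, the beta chain of I-E, Cd74, the invariant chain, the coactivator gene Ciita, and H2-DMa and H2-DMb1, the chains of DM. Every probe set whose only gene symbol in the platform annotation was one of these 7 names was taken, which gave 14 probe sets for 6 genes out of 18193 named genes on the array. H2-DMb1 had none of its own, since the 2 probe sets that list it also list another gene. The genes were chosen by their measured difference between depleted and wild-type oocytes, since the neighbours H2-Aa and H2-Eb1 differed in opposite directions. The differences of the members are therefore a description and carry no p-value.

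The samples were germinal vesicle oocytes, fully grown oocytes arrested in the first meiotic prophase, of mouse. The study compared 5 arrays of CTCF-depleted oocytes with 5 arrays of wild-type oocytes, to find transcripts that depend on CTCF, the zinc finger factor of insulators and loop anchors. The labels give no strain, age or H2 haplotype for either group, nor the means of depletion, nor whether the arrays came from separate animals, so p-values measure only the spread between these arrays, which may be technical. Values are MAS5 signals, a linear brightness per probe set, and their trimmed mean is equal on every array.

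Ctcf itself was low on every depleted array. Its 2 probe sets averaged 20.7 ± 22.7 and 36.3 ± 33.7 in depleted oocytes, against 766 ± 74.1 and 1001 ± 76.0 in wild-type oocytes (SD, n = 5 each; limma, adjusted p = 1.95e-08 and 1.59e-08), and depleted replicate 5 kept the most, at 61.1 and 95.8. All 16 measured oocyte markers lay above the control level on every array. None was called changed, against 16.4% of all tested genes (limma, adjusted p under 0.05). That control level is the highest signal among 27 probe sets for Bacillus transcripts, which mouse RNA lacks, and it ran from 4.75 to 10.9 on depleted arrays and from 6.15 to 10.2 on wild-type arrays. A signal at or below it is not distinguished from background. Wild-type replicate 2 stood apart in its granulosa and cumulus markers, whose summed signal was 1998 there and between 999 and 1100 on the other wild-type arrays, and between 1151 and 1429 on depleted arrays.

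Measured against that level, most class II probe sets gave little or no signal in either group. Only 1 of the 14 probe sets, for H2-Aa, was above the control level on all 10 arrays, 9 were above it on some arrays and 4 on none. Over all probe sets of the array, 42.9% were above it on all arrays and 27.0% on none. Apart from H2-Aa, the members were at or near background in these oocytes. Whether low signals came from the oocyte or from a few attached cells was not tested, and in bulk RNA fewer cells of a type and less RNA per cell cannot be told apart.

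Because H2-Aa and H2-Eb1 differed in opposite directions, their promoters are set beside that of H2-Oa, the class II gene with a steady signal described later on. The 100 bases upstream of each start site are given from RefSeq, assembly GRCm38.p6, 5′ to 3′ on the strand of the gene, for H2-Aa at chr17:34287824-34287923 on the minus strand, H2-Eb1 at chr17:34305767-34305866 and H2-Oa at chr17:34092279-34092378, both on the plus strand. Capitals mark the letters GCAAC, found in the X box where RFX factors bind, and ATTGG, the Y box core bound by NF-Y.
H2-Aa: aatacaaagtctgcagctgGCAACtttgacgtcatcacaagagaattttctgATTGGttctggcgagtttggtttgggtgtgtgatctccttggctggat
H2-Eb1: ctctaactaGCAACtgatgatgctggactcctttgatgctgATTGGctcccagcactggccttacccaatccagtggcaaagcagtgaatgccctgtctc
H2-Oa: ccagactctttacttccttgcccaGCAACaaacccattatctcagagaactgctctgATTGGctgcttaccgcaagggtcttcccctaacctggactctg
The pair is separated by 28 bases in H2-Aa, 27 in H2-Eb1 and 28 in H2-Oa. Searched on both strands of the 250 bases upstream of the start, GCAAC occurs in 29.9% and ATTGG in 33.8% of 32851 promoters in the table. The ordered pair with 15 to 35 bases between its parts, a window set after these promoters were read, occurs in 0.874%. Of 9 promoters listed for 8 class II genes, which do not include H2-Ab1 and H2-Ea, 5 held the pair on the gene's strand: H2-Aa, H2-Eb1, H2-Eb2, H2-Oa and H2-Ob. Among the genes with this arrangement, H2-Aa was lower and H2-Eb1 higher in depleted oocytes. H2-Oa and H2-Eb2 were not called different, and H2-Ob was above the control level on no array. A match of letters is not a bound site.

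H2-Aa was the member measured above the control level on every array, and it was lower in depleted oocytes. Its brightest probe set, 1435290_x_at, read 36.0, 36.9, 36.6, 40.4 and 35.6 on depleted arrays 1 to 5, against 115, 67.2, 96.6, 94.3 and 128 on wild-type arrays 1 to 5. All depleted arrays lay within a narrow band below every wild-type array, while the wild-type arrays spread widely. Means were 37.1 ± 1.89 in depleted and 100.1 ± 22.9 in wild-type oocytes (SD, n = 5 each), and the log2 difference, depleted minus wild type, was -1.34 ± 0.14 (SE), or 2.54-fold lower in depleted oocytes. Depleted replicate 5, with the most Ctcf signal left, was no higher than the other depleted arrays.

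The second H2-Aa probe set, 1438858_x_at, went the same way. It read 16.4, 13.0, 15.6, 5.08 and 10.07 on depleted arrays, against 30.3, 36.8, 30.6, 20.1 and 26.8 on wild-type arrays. The groups did not overlap, the control level was exceeded on 4 of 5 depleted and 5 of 5 wild-type arrays, and the log2 difference was -1.16 ± 0.24 (SE). The other H2-Aa probe sets were dim. Probe set 1452431_s_at ranged from 2.79 to 9.20 in depleted and from 6.08 to 14.1 in wild-type oocytes, with overlapping groups and a log2 difference of -0.46 ± 0.28 (SE). Probe set 1443783_x_at was above the control level on no array. The suffixes x and s mark designs whose probes can also match other transcripts, so which transcript each reads is less certain than for a unique design.

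H2-Eb1, the next gene along the chromosome, was higher in depleted oocytes but close to background. Its single probe set, 1417025_at, read 13.0, 12.0, 16.2, 14.97 and 13.6 on depleted arrays, against 11.2, 9.21, 3.37, 4.14 and 3.08 on wild-type arrays. The groups did not overlap, but wild-type replicates 1 and 2 came near the depleted arrays and the other 3 were far lower. It exceeded the control level on 5 of 5 depleted and 2 of 5 wild-type arrays. Means were 14.0 ± 1.67 in depleted and 6.20 ± 3.75 in wild-type oocytes (SD, n = 5 each), a log2 difference of 1.02 ± 0.27 (SE). Its size depends on the offset of 2.47 added to every signal before the logarithm: with an offset of 16 it was 0.45.

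**Figure D1:**
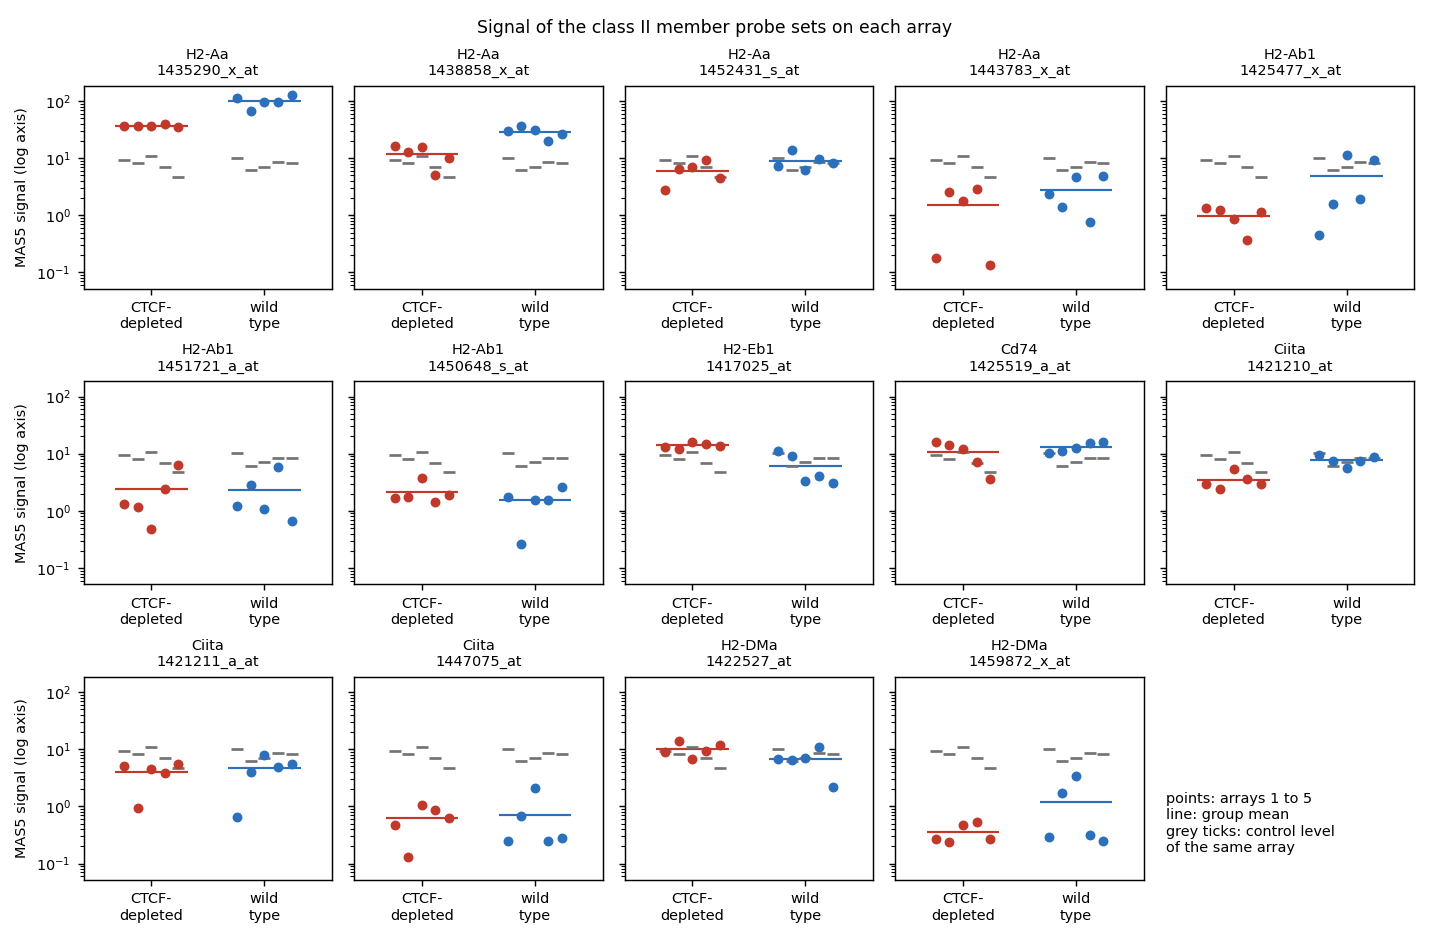
MAS5 signal (log axis) of the 14 class II probe sets on each CTCF-depleted (red, left) and wild-type (blue, right) array, with group means as lines and each array's control level as a grey tick. H2-Aa 1435290_x_at is the only probe set above the ticks on all 10 arrays, and in H2-Eb1 the 5 depleted arrays sit between 12.0 and 16.2, above the wild-type arrays at 3.08 to 11.2.

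H2-Ab1, whose product pairs with that of H2-Aa, gave no steady signal. Its probe set 1425477_x_at read between 0.367 and 1.34 on depleted arrays, against 0.455 to 11.2 on wild-type arrays, where only replicates 3 and 5 exceeded the control level. Probe sets 1451721_a_at and 1450648_s_at averaged 2.36 ± 2.38 and 2.11 ± 0.929 in depleted and 2.35 ± 2.16 and 1.54 ± 0.837 in wild-type oocytes (SD, n = 5 each). In all 3 the groups overlapped, so the partner chain of H2-Aa was not measurable here at a level that could show the same or another change.

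Cd74 encodes the invariant chain that blocks the groove of new class II dimers. It read 15.8, 13.9, 12.2, 7.21 and 3.64 on depleted arrays, against 10.4, 11.1, 12.5, 15.3 and 16.3 on wild-type arrays. The groups overlapped, with depleted replicates 4 and 5 the lowest of all arrays, and the log2 difference was -0.35 ± 0.28 (SE), or -0.10 without depleted replicate 5 and -0.15 with an offset of 16. In antigen-presenting cells Cd74 is among the most abundant transcripts of the pathway. Here it was above the control level on 4 of 5 depleted and 5 of 5 wild-type arrays. On wild-type arrays the margin ran from 10.4 over a control level of 10.2 in replicate 1 to 16.3 over 8.33 in replicate 5.

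Ciita, the coactivator that switches the family on, was at the edge of measurement. Probe set 1421210_at read 2.89, 2.39, 5.39, 3.53 and 2.91 on depleted arrays, against 9.38, 7.37, 5.57, 7.59 and 8.62 on wild-type arrays. Every depleted array was below every wild-type array, but depleted replicate 3 at 5.39 and wild-type replicate 3 at 5.57 nearly met. No depleted array and 2 of 5 wild-type arrays were above the control level, and no fold is given at this level. The other Ciita probe sets, 1421211_a_at and 1447075_at, had overlapping groups and were above the control level on 1 of 5 and 0 of 5 arrays in each group, so no difference is given.

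H2-DMa, the alpha chain of the peptide editor DM, read 9.09, 13.8, 6.80, 9.24 and 12.0 on depleted arrays with probe set 1422527_at, against 6.76, 6.55, 7.14, 10.8 and 2.23 on wild-type arrays. The ranges overlapped, and the log2 difference was 0.51 ± 0.28 (SE), or 0.29 without wild-type replicate 5, 0.22 with the covariate for RNA quality and 0.21 with an offset of 16. Its other probe set, 1459872_x_at, was above the control level on no array.

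Over the 14 probe sets, the groups did not overlap in 4, of which 1 was higher and 3 lower in depleted oocytes. Among all 45037 probe sets of the array other than controls, 7.01% had groups that did not overlap, 2.95% higher and 4.06% lower. A filter on dim probe sets, at a mean signal of about 5.13, left 7 member probe sets of 5 genes. The members nearest to it were Ciita 1421210_at at 5.19, inside, and Ciita 1421211_a_at at 3.92, outside. In limma, fitted on all 27022 probe sets that passed the filter with Benjamini-Hochberg adjustment and a threshold of 0.05, 3 member probe sets were called: H2-Aa 1435290_x_at and 1438858_x_at lower and H2-Eb1 higher. Of all tested probe sets 12.6% were called, 5.48% (1481) higher and 7.12% (1925) lower, or 2179 higher and 1086 lower with each array centred on its median. The contrast that chose the members gives these counts, and nothing is read from them.

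The H2-Aa difference was as large without the array that stood apart: without wild-type replicate 2, which had the lowest H2-Aa signal of the wild-type arrays, it was -1.48, and that of H2-Eb1 was 1.15. Across 19 other settings the H2-Aa difference lay between -1.48 and -1.105 and that of H2-Eb1 between 0.45 and 1.21. H2-Eb1 was no longer called in 5 of them: without wild-type replicate 3 (0.90), without wild-type replicate 5 (0.88), the covariate for RNA quality (0.87), no filter on dim probe sets, and a stricter filter that removed the probe set. The contrast that chose H2-Eb1 also gives these calls, so they describe the fit and are not a test of the gene.

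**Figure D2:**
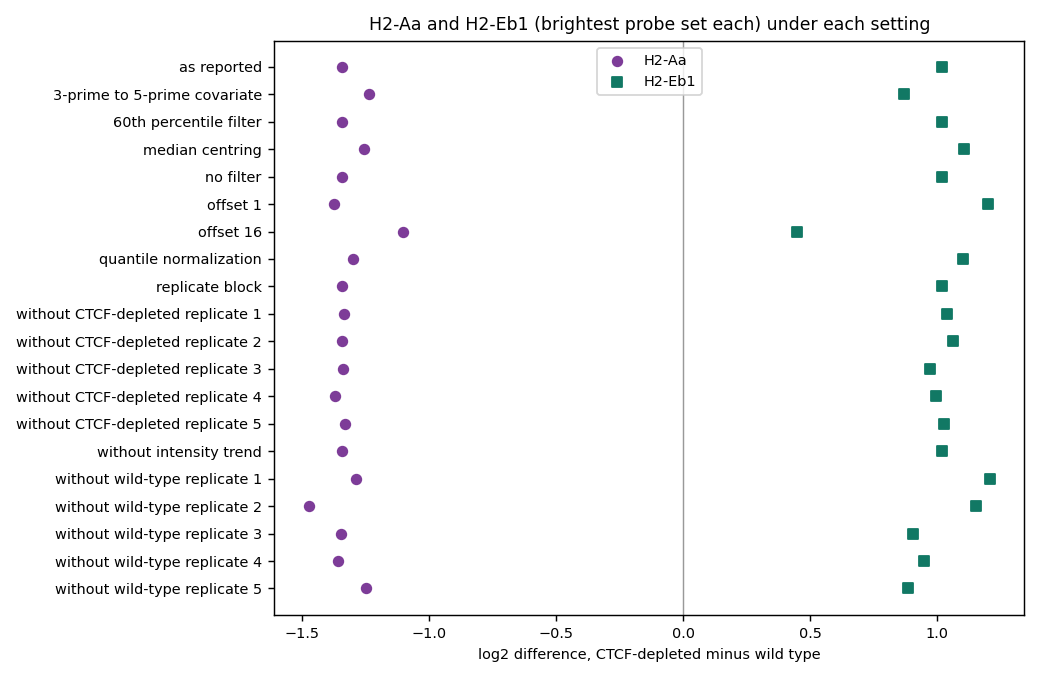
Log2 difference, CTCF-depleted minus wild type, of the brightest H2-Aa (circles) and H2-Eb1 (squares) probe sets as reported and under 19 other settings. H2-Aa stays between -1.48 and -1.105, and H2-Eb1 between 0.45, with an offset of 16, and 1.21.

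Class II genes outside the group showed no called change. Of 5 with a probe set of their own 4 were tested and 0 were called in either direction, against 16.4% of all 13811 genes represented by their brightest probe set (7.26% higher, 9.12% lower). At an unadjusted p under 0.05, 1 passed in limma, H2-Ea. H2-Oa, the alpha chain of DO, was above the control level on every array and read 216, 241, 205, 161 and 217 on depleted arrays, against 225, 202, 223, 188 and 203 on wild-type arrays. Its groups overlapped fully, with a log2 fold change of -0.01 ± 0.10 (SE; limma, adjusted p = 0.973), while H2-Ob, the beta chain of DO, was above the control level on no array. H2-Eb2 was near the control level, at 8.83 in depleted and 9.65 in wild-type oocytes, and gave -0.11 (adjusted p = 0.811). H2-DMb2, a DM beta chain gene, was near it too, at 10.4 and 12.0 on its brightest probe set, with -0.16 (adjusted p = 0.693). Its other probe sets gave 0.12 and -0.80, the latter too dim to be tested. Signals this dim could hide a change.

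H2-Ea, the alpha chain that pairs with the H2-Eb1 product, is defective in mice of some H2 haplotypes, and the C57BL/6J reference annotates it as a transcribed pseudogene. Its brightest probe set, 1422891_at, read 6.92, 5.48, 15.3, 5.41 and 5.66 on depleted arrays, against 13.5, 7.83, 38.5, 27.3 and 10.2 on wild-type arrays. The groups overlapped through depleted replicate 3, and 2 of 5 depleted but 5 of 5 wild-type arrays were above the control level. The log2 fold change was -0.98 ± 0.35 (SE; limma, adjusted p = 0.0836), and it passed without depleted replicate 3 (-1.20, adjusted p = 0.036) and without wild-type replicate 2 (-1.20, adjusted p = 0.034). The other H2-Ea probe sets were above the control level on no array.

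Class II chains differ in sequence between inbred strains, and a probe designed on one haplotype can read another less well. The probe sequences were not analysed here and the labels name no strain, so whether the groups differ in H2 haplotype was not tested. Among 5 genes known to vary in transcript or copy number between inbred strains (Nnt, Glo1, Alad, Pla2g2a and Wdfy1), 0 rose and 1 fell, or 20% against 16.4% of all genes. Nnt and Pla2g2a were near the control level, averaging 6.79 and 8.53 in depleted and 8.09 and 9.79 in wild-type oocytes, so they could hide a change. Nothing about strain is read from this count. The gene that fell was Glo1, a glyoxalase, which averaged 44.3 ± 4.41 in depleted and 67.8 ± 8.12 in wild-type oocytes (SD, n = 5 each; log2 fold change -0.59, limma, adjusted p = 0.00299). Other tested Glo1 probe sets gave -0.49 and -0.36.

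The comparison of neighbouring genes asks whether other genes around H2-Aa differed too. Of the 25 genes on each side in the RefSeq order, members left out, 30 had a probe set and 23 were tested, and 1 was called higher and 1 lower, or 8.70%, against 16.4% of all genes. Their median log2 fold change was -0.09, against -0.02 over all genes. The called genes lay 25 and 19 positions away on the same side: H2-K1, a class I heavy chain that was not called as a mean of its probe sets, and H2-Ke6, a hydroxysteroid dehydrogenase, at -0.34 ± 0.08 (SE; limma, adjusted p = 0.00842), which was not called under median centring (adjusted p = 0.0775). No gene within 10 positions of H2-Aa other than members was called. Tap2, a subunit of the peptide transporter 4 genes away, was nearest to the threshold with -0.74 ± 0.24 (SE; adjusted p = 0.0536), and Brd2, a chromatin reader, had 0.07. Without depleted replicate 3, as without wild-type replicate 2, 4 neighbours were called, H2-Ea and Tap2 being the additions.

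**Figure D3:**
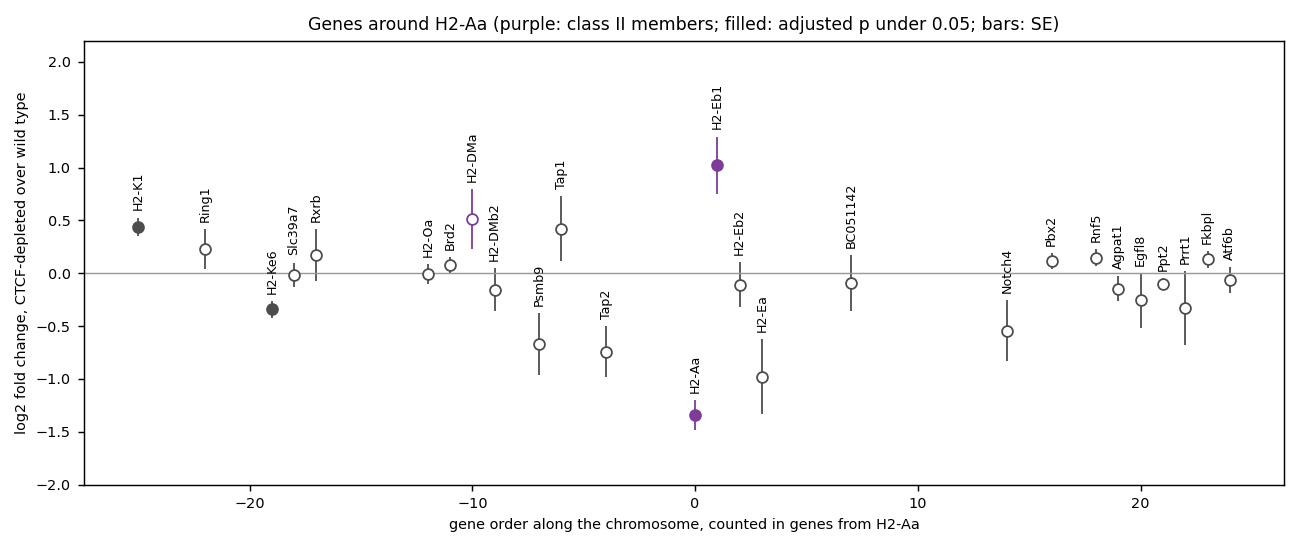
Log2 fold change, CTCF-depleted over wild type, with SE, of the tested genes among the 25 on each side of H2-Aa, by gene order. H2-Aa at -1.34 and H2-Eb1 at 1.02 stand at neighbouring positions, H2-Ea lies at -0.98, and the filled non-member genes are H2-K1 at 0.44 and H2-Ke6 at -0.34.

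Genes for the factors that occupy class II promoters, where tested, were above the control level on every array. Of 14 listed, 12 were tested, and 1 rose and 1 fell, or 16.7%, against 16.4% of all genes, with a median log2 fold change of 0.03. Irf8, an interferon regulatory factor of myeloid and B cells, rose to 323 ± 29.6 in depleted oocytes, against 237 ± 25.7 in wild-type oocytes (SD, n = 5 each; limma, adjusted p = 0.002), with 0.23 on its other probe set. Nfyc, a subunit of NF-Y, fell by 0.16 on the log2 scale (adjusted p = 0.0127), but under median centring it fell by 0.08 and was not called (adjusted p = 0.494). The RFX subunit genes Rfx5, Rfxap and Rfxank did not pass the test, at 0.17, 0.08 and -0.20 on the log2 scale. Rfx5 was called in 5 other settings: the covariate for RNA quality, the stricter filter, median centring, gene means and leaving out depleted replicate 2. Without that array, as with the covariate, the acetyltransferase gene Ep300 was called too, giving 4 genes.

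Interferon gamma induces class II genes by way of Ciita in many cells. Of 13 genes of this signalling 10 were tested, and 2 rose and 1 fell, or 30.0% against 16.4% of all genes, with a median of 0.04. Socs1, an inhibitor of JAK kinases, averaged 26.5 ± 6.98 in depleted and 54.4 ± 9.17 in wild-type oocytes (SD, n = 5 each), a log2 fold change of -0.99 ± 0.17 (SE; limma, adjusted p = 0.000968). Its relative Socs3 rose to 341 ± 90.1 in depleted oocytes, against 208 ± 38.3 in wild-type oocytes (adjusted p = 0.00523), with 0.61 and 0.31 on its other probe sets. Irf1, a transcription factor upstream of Ciita, rose 1.12-fold (adjusted p = 0.0229), and the call was lost without depleted replicate 5 or wild-type replicate 2 or 5, at adjusted p of 0.0593, 0.0572 and 0.0614, with the covariate for RNA quality (0.0786) and without the intensity trend (0.108). The receptor chains Ifngr1 and Ifngr2, near the control level, gave -0.33 and 0.09 on the log2 scale, and the kinases Jak1 and Jak2 gave 0.10 and -0.08, none of them called.

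Of 16 measured genes of class II antigen processing 15 were tested, and 2 rose and 1 fell, or 20% against 16.4% of all genes, with a median of -0.07. Cd9, a tetraspanin of the egg surface that also associates with class II molecules, rose 1.42-fold (limma, adjusted p = 4.28e-05). Ctsb, a lysosomal protease, rose 1.16-fold (adjusted p = 0.0273), but the call was lost without depleted replicate 1 and without wild-type replicate 2, 3 or 5, with the covariate for RNA quality and without the intensity trend, with adjusted p from 0.0526 to 0.0956. Marchf8, a ubiquitin ligase that removes class II molecules from the surface, averaged 62.8 ± 9.89 in depleted and 101 ± 5.09 in wild-type oocytes (SD, n = 5 each), a log2 fold change of -0.68 ± 0.11 (SE; adjusted p = 0.000523). Ctss, the protease that trims the invariant chain in antigen-presenting cells, gave -0.61 on the log2 scale near the control level, without passing the test. The thiol reductase Ifi30 had -0.10.

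Class I molecules present peptides made in the cytosol, and their heavy chains share the H2 region. Of 23 such genes with a probe set 16 were tested, and 1 rose and 1 fell, or 12.5% against 16.4% of all genes, with a median of -0.11. With each gene as the mean of its probe sets, 0 rose and 3 fell, namely Calr, Cd1d1 and Tap2, and H2-K1 was not called. H2-K1 averaged 259 ± 19.0 in depleted and 191 ± 22.1 in wild-type oocytes (SD, n = 5 each), a log2 fold change of 0.44 ± 0.09 (SE; limma, adjusted p = 0.00251). Its other tested probe sets gave 0.53 and -0.52, so they disagreed in sign. Cd1d1, a class I-like molecule that presents lipids, fell to 74.2 ± 17.3 in depleted oocytes, against 133 ± 33.1 in wild-type oocytes (adjusted p = 0.00344), with -1.40 on its other probe set. B2m, the light chain of class I molecules, had 0.09 and was not called.

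**Figure D4:**
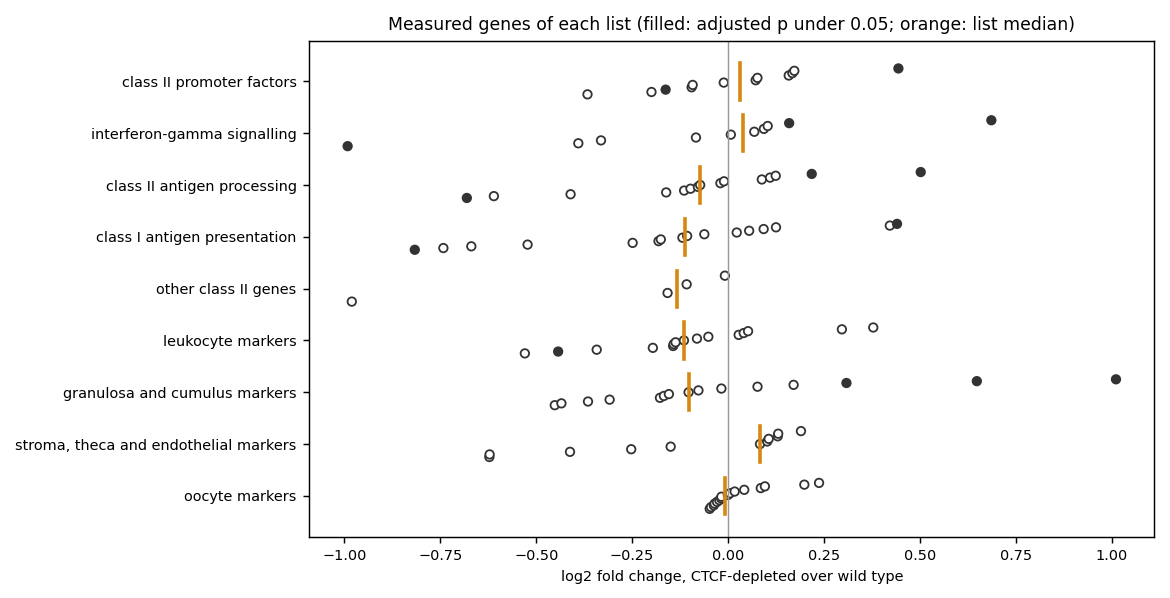
Log2 fold change, CTCF-depleted over wild type, of each tested gene by list, 1 point a gene, filled where called. The strain-variable genes and the genes next to H2-Aa are not drawn. The medians of the lists drawn run from -0.13 for other class II genes to 0.08 for markers of stroma, theca and endothelium, and each list holds genes on either side of 0 except the other class II genes.

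Class II genes mark antigen-presenting leukocytes, so other markers of these cells stand beside them. Of 30 leukocyte markers with a probe set 6 were above the control level on all arrays and 8 on none, among them Ptprc, the pan-leukocyte phosphatase CD45, Cd79b of B cells and Cd14 of monocytes. The B cell gene Ms4a1 was bright in both groups, at 1112 in depleted and 1224 in wild-type oocytes. The summed signal of the list ran from 1333 to 1512 in depleted and from 1443 to 1645 in wild-type oocytes, with means of 1412 ± 66.2 and 1563 ± 81.7 (SD, n = 5 each; two-sided exact permutation p = 0.0159, where 0.00794 is the smallest possible). Without Ms4a1, a choice made after seeing its share, the means were 299 ± 30.1 in depleted and 339 ± 13.7 in wild-type oocytes (two-sided exact permutation p = 0.0397). For the full list with Ms4a1, the difference did not pass with arrays centred on their medians (p = 0.484 by the same exact test). With arrays left out in turn, the full-list difference, depleted minus wild type, lay between -181 and -130.5.

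Of 15 tested leukocyte markers 0 rose and 1 fell, or 6.67% against 16.4% of all genes. It was Laptm5, a lysosomal protein of blood cells, at -0.44 ± 0.14 (SE; limma, adjusted p = 0.0465). That call was lost in 11 of 19 other settings, among them leaving out depleted replicate 2, 3 or 5 or wild-type replicate 3, 4 or 5. Laptm5 averaged 76.1 ± 16.4 in depleted and 103 ± 15.2 in wild-type oocytes (SD, n = 5 each), so Ms4a1 and Laptm5 make up most of the difference in the sum. The part of leukocytes in the H2-Aa difference was not tested. Of 15 tested granulosa and cumulus markers 3 rose and 0 fell, namely Gata4, Fshr and Nr5a2 at 0.65, 1.01 and 0.31 on the log2 scale (limma, adjusted p up to 0.00637), or 20% against 16.4% of all genes. The median of the list was negative, at -0.10, and markers that were not called included Kitl at -0.45 and Inha at -0.43. Of 11 tested markers of stroma, theca and endothelium 0 were called, against 16.4% of all genes. Granulosa markers summed to 1275 ± 119 in depleted and 1259 ± 415 in wild-type oocytes (SD, n = 5 each), but without wild-type replicate 2 the wild-type sums, 999 to 1100, lay below all depleted sums, 1151 to 1429. Over all arrays, Nr5a2 averaged 433 in depleted and 350 in wild-type oocytes, Gata4 247 and 157, and Fshr 47.8 and 23.2. Inha averaged 147 ± 34.4 in depleted and 230 ± 173 in wild-type oocytes (SD, n = 5 each), so its wild-type arrays spread widely. These means and the negative median of the list include wild-type replicate 2. The values therefore do not settle whether the list as a whole rose. The ratio of 3-prime to 5-prime signal of Actb and Gapdh, a measure of RNA quality, ran from 2.60 to 2.96 in depleted and from 2.80 to 3.11 in wild-type oocytes on the log2 scale.

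The genes whose profile over the 10 arrays was most like that of H2-Aa were sought among 23607 other tested probe sets with 1 symbol, by the root mean square difference of centred log2 signals. This measure takes in the difference between the groups. The nearest were Naaladl2, a peptidase-like gene, at 0.17, Plek, the leukocyte and platelet protein pleckstrin, at 0.19, and Foxp2, a forkhead transcription factor, at 0.19. Naaladl2 averaged 31.8 ± 1.78 in depleted and 88.2 ± 11.8 in wild-type oocytes (SD, n = 5 each). Like H2-Aa, all were above the control level on every array and lower in depleted oocytes, with log2 differences of -1.39, -1.35 and -1.54. The nearest to H2-Eb1 were Igf2bp1, an RNA-binding protein gene, at 0.22, Gm19461 at 0.24 and Ppp2r3a, a phosphatase subunit gene, at 0.25. They too were near the control level, which 1, 1 and 2 of 5 wild-type arrays exceeded.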

How the data were processed

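The deposited table holds intensity values, 1 MAS5 signal per probe set and array, per the submitters' processing notes. MAS5 settings are not given in the sources used here, and the equal trimmed mean of the arrays was found from the values. Total RNA came from a Picopure kit and was labelled with biotin by a small-sample assay, per the labels' protocols.

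Groups came from the sample titles. An offset of 2.47, the 25th percentile of the signals, was added before taking log2, so the fold changes of dim genes are understated. Without 64 control probe sets and those whose mean lay below the 40th percentile, 27022 of 45101 probe sets entered limma 3.58.1 in R 4.3.3 (eBayes with an intensity trend, Benjamini-Hochberg adjustment). The highest tested probe set by mean stood for a gene. Precision is limited by the number of arrays. Gene IDs of 34741 of the 34945 probe sets with 1 symbol matched RefSeq (GRCm38.p6), with 0 symbols changed; 932 had several symbols and 9160 none.

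The members, lists and tests were chosen with earlier results of these data known. Named were all member probe sets, other class II genes, up to 4 called genes per list by smallest adjusted p, called genes within 10 positions of H2-Aa, the 3 probe sets most like H2-Aa and H2-Eb1 each, and Ctcf; uncalled genes were named after their values were seen. In simulated data of 27022 probe sets for this comparison, 44% of log2 changes of 0.5 and 73% of those of 1 were recovered. That simulation gave 131 calls, 14 of them false, whereas the real arrays gave 3406 calls. The Benjamini-Hochberg cutoff depends on how many probe sets pass, so these shares do not give the recovery in the real comparison. Alternatives were other offsets, filters, scalings and variance models, a replicate block, a covariate for RNA quality, gene means and leaving out each array.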

Additional observations from a re-analysis of the deposited data

Results flagged for a closer look

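Of 86 groups of 5 arrays looked at, 9 held an array far from the others by Dixon's criterion, which chance alone meets in about 1 in 20 groups. In depleted oocytes, replicate 4 read 40.4 for H2-Aa 1435290_x_at, with the next array at 36.9, still below every wild-type array. Depleted replicate 3 read 15.3 for H2-Ea 1422891_at, with the next at 6.92, and 3.75 for H2-Ab1 1450648_s_at, with the next at 1.89. In wild-type oocytes, Ciita 1447075_at reached 2.07, with the next at 0.686, the lowest array read 0.474 for H2-Ea 1426202_at, with the next at 4.59, and 0.628 for H2-DMb2 1443686_at, with the next at 9.85. Cd9 reached 299.5 on a wild-type array, with the next at 276, and Ctsb 1011 on a depleted array, with the next at 923. The summed granulosa and cumulus signal reached 1998 in wild-type replicate 2, with the next at 1100.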

How the results depend on the processing

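With an offset of 16 the H2-Eb1 difference was 0.45, because a larger offset shrinks dim signals. With arrays left out in turn, H2-Aa ran from -1.48 to -1.25, H2-Eb1 from 0.88 to 1.21, and the count of called probe sets from 2743 to 3314. The replicate block gave 3581 called probe sets, H2-Aa at -1.34 and H2-Eb1 at 1.02, and called 4 genes next to H2-Aa, H2-Ea (adjusted p = 0.0202) and Tap2 being the additions. Deviations of same-numbered arrays correlated by 0.0024 to 0.051, and those of other pairs by -0.059 to 0.049. Not every array was closest to its own number. These values do not settle whether the numbers pair arrays, and the reported fit did not pair them. Median centring called 1 gene next to H2-Aa, and leaving out arrays in turn 2 to 4. Class II promoter factors numbered 4 called with the covariate for RNA quality, 1 without the intensity trend and 2 to 4 with arrays left out in turn. Class II antigen processing genes numbered 5 called when a gene was the mean of its probe sets, a setting in which genes next to H2-Aa were 0 higher and 2 lower, H2-Ke6 and Tap2. The summed leukocyte signal, depleted minus wild type, was -41.1 under median centring (two-sided exact permutation p = 0.484) against -151 as reported. Apart from offset, construction and sample number, the causes were not tested. Signals near the control level limit what can be said of H2-Ab1, Ciita and H2-DMa in either group.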
